A study of Mus musculus with 6 samples.

Results

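The 9 genes described here are secreted and membrane-bound matrix metalloproteinases of connective tissue and the inhibitors that hold them in check: Mmp2, Mmp11, Mmp13, Mmp14, Mmp16, Timp1, Timp2, Timp3 and Reck. They were chosen by name, as a protease and inhibitor family, and not by a measured value, but with earlier results of these data known. They were read by 11 probes, 2 each for Mmp14 and Timp1 and 1 for each other gene, out of 17178 named genes on the array. RNA of 6 samples of tooth germs was hybridised in 1 colour to Agilent whole-genome mouse arrays. All samples were lower first molar germs of postnatal day 0 mice of the 129/Sv strain, labelled male. In 3 of them the mice were labelled Perp-null, with no functional gene for the desmosomal membrane protein Perp, and in the other 3 they were labelled wild type. The replicates are written PN1 to PN3 and WT1 to WT3. They are labelled biological replicates, but neither the number of mice pooled in each nor their litters are stated, and a p-value reflects only the scatter among these 6.

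Matrix metalloproteinases are zinc-dependent proteases that are made as inactive proenzymes and, once a prodomain is removed, cut collagens, laminins, proteoglycans and other matrix proteins. The tissue inhibitors of metalloproteinases (TIMPs) occupy the active site, and Reck is a membrane-anchored inhibitor of several of the same enzymes. Mmp14 at the cell surface, with Timp2 bound to it as an adaptor, activates the proenzyme of Mmp2, so an inhibitor can also be part of an activation complex. In a tooth germ these genes are known chiefly from the dental mesenchyme and follicle, where matrix and basement membrane are remodelled as odontoblasts and ameloblasts mature.

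The deposited data came as 1 scanner file per array and as 1 table of values processed by the authors, and the labels of the files and of the table did not line up. In the scanner files Perp itself, on a log2 scale relative to the 75th percentile of its array, read 5.87, −6.81 and 5.97 in PN1, PN2 and PN3, against 5.96, −5.06 and 5.91 in WT1, WT2 and WT3. Perp therefore went against the label on 3 of 6 arrays: it was high in PN1 and PN3 and low in WT2. In the authors' processed table, whose values behave as log2 signals, Perp read 7.51, 8.24 and 7.26 in the PN columns, against 17.01, 16.95 and 16.98 in the WT columns, so all 6 columns followed their labels. After quantile normalization, 5 of 6 scanner files lay nearest to a table column of another label. The file labelled PN1 differed from column WT3 with an SD of 0.128 log2 units over 15032 probes, against 0.691 from its own column. The file labelled WT2 lay 0.129 from column PN1, and the file labelled WT3 lay 0.0388 from column WT2. Only the file labelled WT1 lay nearest to its own column, at 0.0811. The file PN2 lay nearest to column PN3, at 0.260, and PN3 nearest to WT1, at 0.293, distances at which a match is not settled. In all 6 cases the file and its nearest column had the same Perp state, high or low. Column PN2, however, had low Perp (8.24) with a high signal of the Y-linked gene Ddx3y (11.64), which no scanner file had. In the files with low Perp, PN2 and WT2, Ddx3y was low, at −8.93 and −9.08. A change of labels alone therefore cannot line up the files and the table. No array was moved to another group because of this. Each value below is given from the scanner files under their labels and then from the table under its labels, and "the library labelled" is to be understood throughout.

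**Figure D1:**
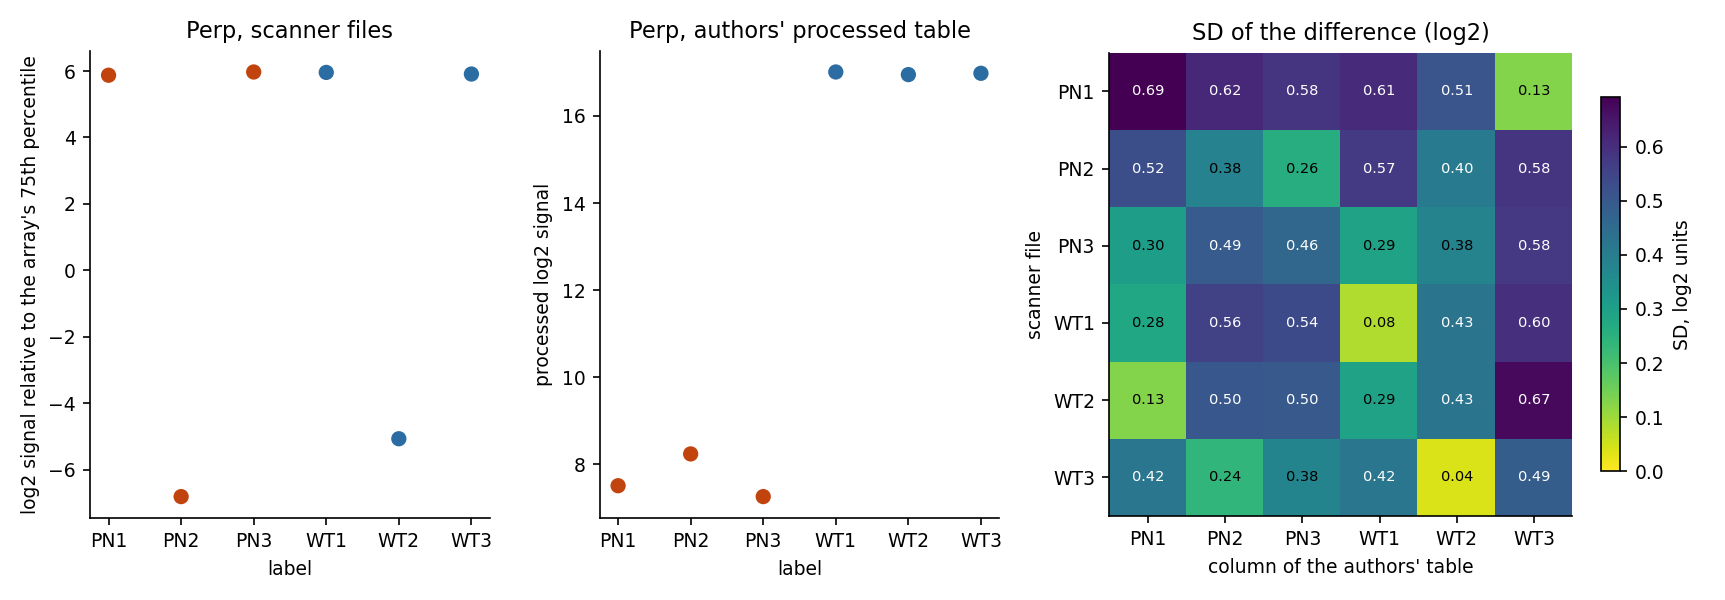
The left and middle panels plot Perp per array, in log2 signal relative to the array's 75th percentile (scanner files) and in processed log2 signal (authors' table), labelled Perp-null in orange and labelled wild type in blue. The right panel gives the SD of the log2 difference between each scanner file (rows) and each table column (columns); Perp follows the labels only in the table, and the smallest SD of a row lies on the diagonal only for WT1.

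All 3 scanner files labelled Perp-null came from one slide and scan and all 3 labelled wild type from another, so slide and label cannot be told apart. Between 72.8% and 82.3% of gene probes were well above background on an array, and no gene spot was saturated. Defining markers of tooth mesenchyme (13 of 13 with a named probe), enamel epithelium (6 of 6) and odontoblasts and bone (9 of 9) were above background on all 6 arrays, as were those of endothelium (8 of 8) and muscle (6 of 6), so the samples held other tissue as well. Xist was high and the Y-linked gene Ddx3y low, against the male label, on 3 of 6 scanner files (PN1, PN2 and WT2) and on 3 of 6 table columns (PN1, PN3 and WT3), and those files and columns were each other's nearest. In such bulk tissue, fewer cells of a type and less RNA per cell cannot be told apart.

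All 9 genes were measured, and 8 of them were well above background on all 6 arrays. Mmp16 reached that level on 4 arrays, 2 of 3 in each labelled group. In the scanner files no member of 9 passed an adjusted p of 0.05 (limma with Benjamini-Hochberg adjustment over 26676 features), and 0% of all features did. At an unadjusted p under 0.05, Mmp2 and Timp2 were lower in PN, 2 of 9 members, where 1.78% of all features were. In 3 of 9 members, Mmp2, Timp2 and Timp3, every PN array lay below every WT array, as in 3.49% of all features. The mean was lower in PN for 9 of 9 members, as for 61.0% of all features, and the median difference was −0.32 log2 over the members and −0.085 over all features. Of the 15581 features with a gene name, 408 were lower at an unadjusted p under 0.05. In 782 of them every PN array lay below every WT array, 10231 had a lower mean, and their median was −0.10.

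The authors' table did not show this pattern. No member of 9 passed the adjusted threshold, where 23.6% of all 26677 features did. None passed an unadjusted p under 0.05, which 35.9% of all features did, and the groups overlapped for all 9 members, while they did not overlap for 43.2% of all features. The mean was lower in PN for 5 of 9 members, as for 48.4% of all features, with a median difference of −0.04 over the members and 0.013 over all features. Of the 15582 features with a gene name, 2446 passed the adjusted threshold and 7503 had a lower mean. Over all features, 6289 were called in the table with all 6 columns and 1 without column PN2. The 4 members with a change of sign between the sets were Mmp2, Mmp11, Mmp13 and Reck.

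**Figure D2:**
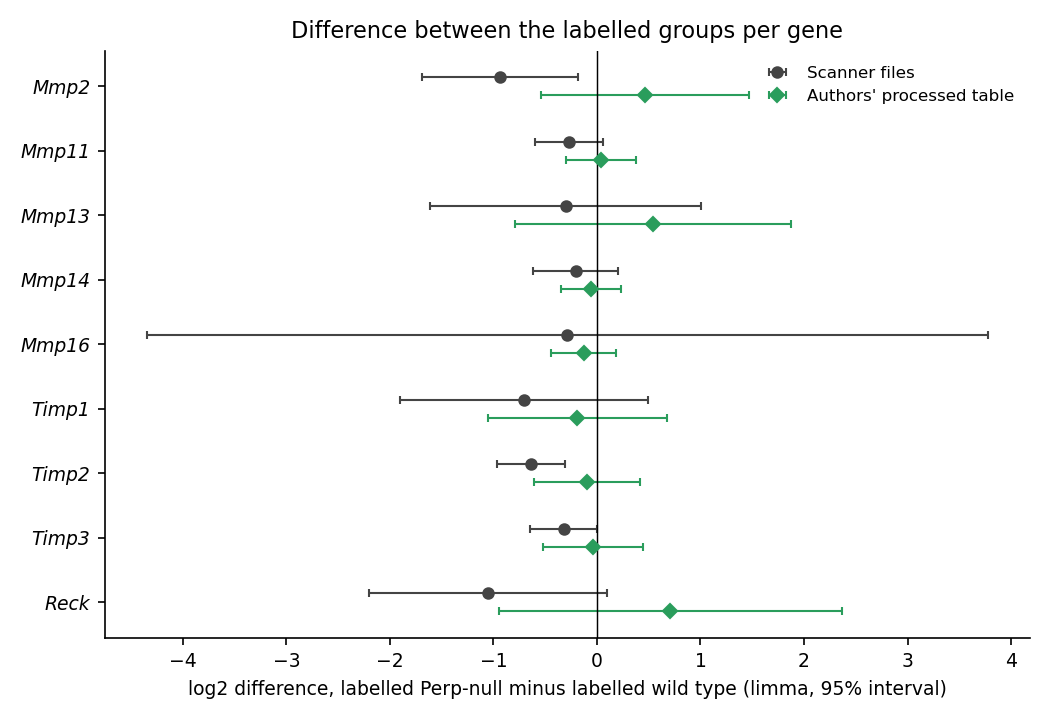
Each row is a gene and each point the limma estimate of the log2 difference, labelled Perp-null minus labelled wild type, with its 95% interval, in the scanner files (grey circles) and in the authors' table (green diamonds). The intervals of Mmp2 and Timp2 lie below 0 in the scanner files, and all 9 intervals of the table include 0.

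Mmp2, gelatinase A, which degrades denatured collagen and type IV collagen, was among the members that separated by label in the scanner files. Its log2 signal relative to the 75th percentile was 0.24, 1.19 and 1.48 in PN1, PN2 and PN3, against 1.72, 1.90 and 2.10 in WT1, WT2 and WT3. All PN values lay below all WT values, PN1 far below the rest. The mean was 0.97 ± 0.64 in PN and 1.91 ± 0.19 in WT (SD, n = 3 each), a difference of −0.94 (SE 0.32, limma adjusted p = 1.00, unadjusted p = 0.0222), or 0.522-fold. Without PN1 the difference was −0.57. The processed log2 signals of the table were 12.89, 13.18 and 12.36 in the PN columns, against 12.71, 13.05 and 11.28 in the WT columns. There it was column WT3 that lay far below the other 5, and the difference was 0.46 (SE 0.44, limma adjusted p = 0.522). Without that column it was −0.07.

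Mmp14, the membrane-type enzyme that activates Mmp2 at the cell surface, had groups that overlapped in both sets at its brighter probe. Its probe with the highest signal read 4.14, 4.18 and 4.18 in PN, against 4.60, 4.50 and 4.01 in WT. The PN arrays lay within the range of the WT arrays, and the difference was −0.20 (SE 0.17, 95% interval −0.61 to 0.21). It was −0.38 without WT3, when both other WT arrays lay above every PN array, and −0.09 without WT1. The same probe read 15.19, 15.13 and 15.04 in the PN columns of the table, against 15.40, 14.98 and 15.16 in the WT columns. The groups overlapped there too, with a difference of −0.06 (SE 0.13, 95% interval −0.35 to 0.23). The other Mmp14 probe read 0.75, 0.12 and 0.91 in PN, against 0.83, 0.74 and 0.84 in WT, where PN2 alone was low. In the table this probe read 11.68, 11.63 and 11.23 in PN, against 11.75, 11.82 and 11.86 in WT. It was the one probe of the 11 whose groups were apart in the table, at −0.30 (SE 0.17, limma adjusted p = 0.263).

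Mmp13, the collagenase that cuts fibrillar collagens and is known from hypertrophic cartilage and osteoblasts, varied more within the groups than between them. It read 2.23, 1.74 and 1.54 in PN, against 0.80, 2.68 and 2.93 in WT. Its lowest and its highest array were both labelled wild type, so the difference of −0.30 (SE 0.55) was smaller than the WT SD of 1.16. It was 0.095 without WT3 and −0.97 without WT1. Table values were 13.60, 14.25 and 12.56 in PN, against 11.71, 13.84 and 13.24 in WT. Column WT1 was again the lowest, as was the scanner file WT1, the array on which file and column matched. The table's difference was 0.54 (SE 0.58, 95% interval −0.79 to 1.87), and −0.07 without column WT1.

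Mmp11, stromelysin-3, a stromal enzyme activated inside the cell by furin, had the narrowest spread of the proteases. It read 1.12, 1.40 and 1.21 in PN, against 1.51, 1.39 and 1.65 in WT, where WT2 fell just below PN2. The difference was −0.27 (SE 0.14, 95% interval −0.59 to 0.054). In the table it read 12.35, 12.61 and 12.57 in PN, against 12.51, 12.60 and 12.31 in WT, a difference of 0.04 (SE 0.15) with interleaved groups.

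Mmp16, a further membrane-type metalloproteinase, was dim. It read −3.00, −8.60 and −5.10 in PN, against −4.56, −6.70 and −4.57 in WT, and PN2 and WT2, the lowest in each group, were the arrays on which it was not well above background. The difference of −0.29 (SE 1.70) had a 95% interval of −4.35 to 3.77, so a difference was not detectable at this signal. It was 1.23 without PN2. The 6 table columns lay close together, at 6.73, 6.86 and 6.80 in PN, against 6.81, 6.85 and 7.11 in WT.

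**Figure D3:**
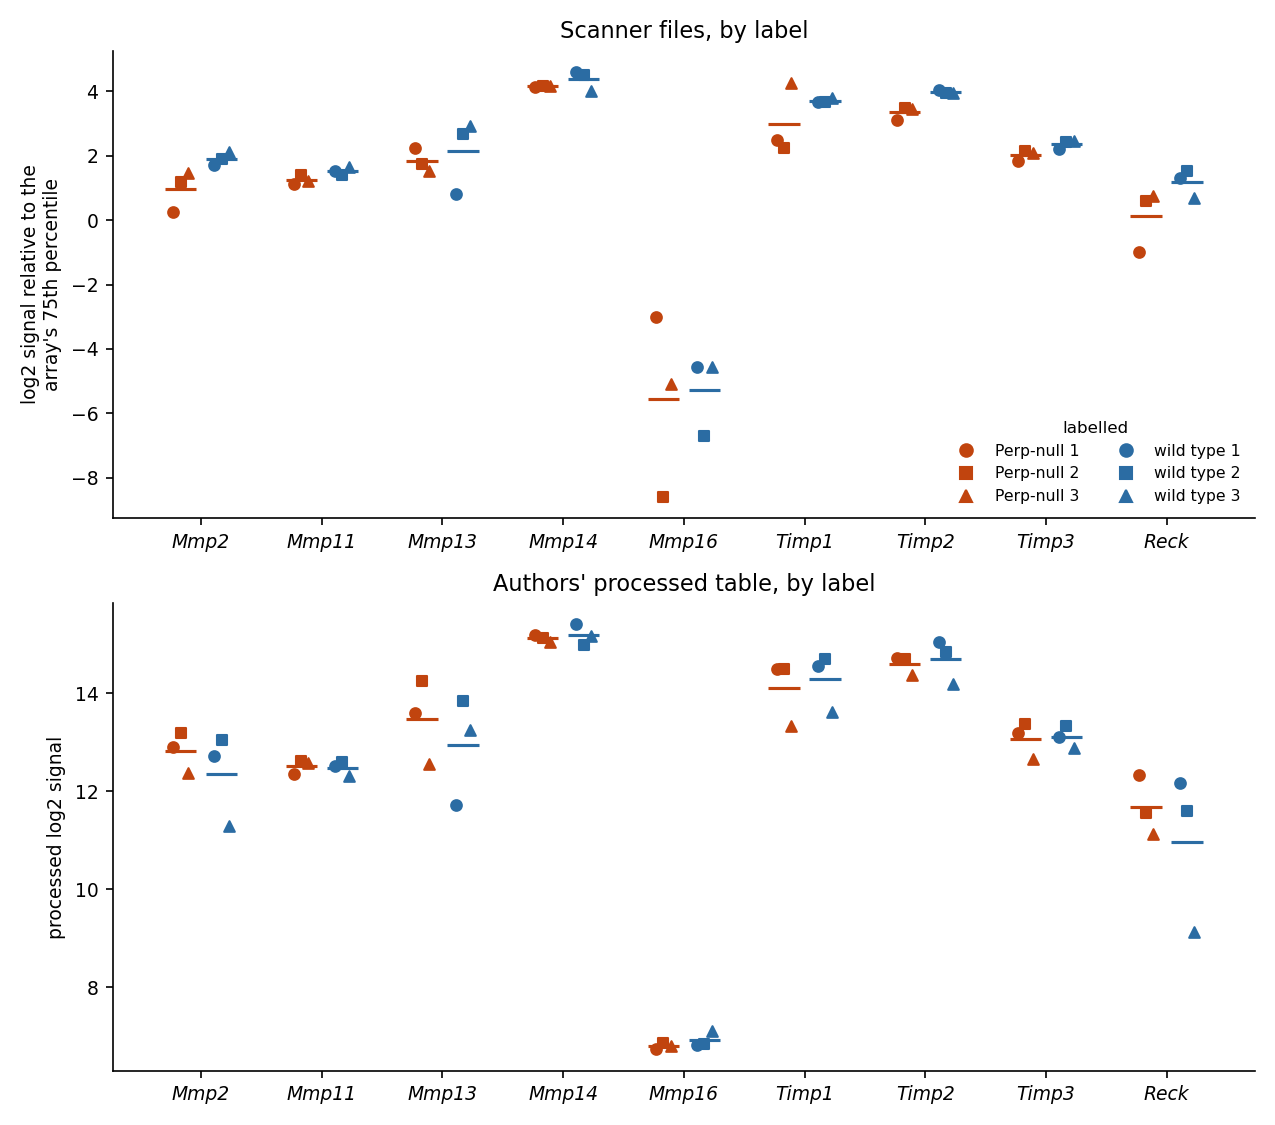
Each point is 1 array and each bar the mean of 3, for the 9 genes (for Mmp14 and Timp1 the probe with the higher signal), with labelled Perp-null in orange left of labelled wild type in blue; the upper panel gives log2 signal relative to the array's 75th percentile and the lower panel the authors' processed log2 signal. In the upper panel the groups are apart for Mmp2, Timp2 and Timp3; in the lower panel they overlap for all 9 genes, and WT3 is lowest for Mmp2 and Reck.

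Timp2, which inhibits most metalloproteinases and also links Mmp2 to Mmp14, had the clearest separation in the scanner files. It read 3.10, 3.47 and 3.45 in PN, against 4.05, 3.95 and 3.94 in WT. All PN arrays lay below all WT arrays, and both groups were tight: 3.34 ± 0.21 in PN and 3.98 ± 0.06 in WT (SD, n = 3 each). The difference was −0.64 (SE 0.14, limma adjusted p = 1.00, unadjusted p = 0.00259), or 0.643-fold. Its table values were 14.72, 14.70 and 14.36 in PN, against 15.04, 14.84 and 14.18 in WT. Column WT3 was the lowest of the 6 and every PN column lay within the range of the WT columns. The difference was −0.09 (SE 0.22, limma adjusted p = 0.825).

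Timp3, the inhibitor that binds to the extracellular matrix and also blocks ADAM proteases, differed less. It read 1.84, 2.16 and 2.09 in PN, against 2.20, 2.42 and 2.44 in WT, with PN2 just under WT1. The difference was −0.32 (SE 0.14, limma adjusted p = 1.00, 95% interval −0.65 to 0.0038). For Timp3 the table gave 13.18, 13.36 and 12.65 in PN, against 13.10, 13.33 and 12.88 in WT. The highest and the lowest column were both PN there, with a difference of −0.04 (SE 0.21).

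Timp1, an inducible soluble inhibitor, set PN3 apart from the other PN arrays. Its brighter probe read 2.49, 2.22 and 4.25 in PN, against 3.66, 3.65 and 3.77 in WT. PN1 and PN2 lay below all WT arrays and PN3 above them, and the difference was −0.70 (SE 0.50). It was −1.34 without PN3 and −0.32 without PN2. The other probe gave the same order of groups, at −0.15, −0.81 and 1.48 in PN, against 0.67, 0.81 and 1.00 in WT. The brighter probe read 14.48, 14.48 and 13.33 in the PN columns of the table, against 14.55, 14.70 and 13.61 in the WT columns. There column PN3 was the lowest and WT3 the next, a difference of −0.19 (SE 0.38, 95% interval −1.06 to 0.68).

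Reck, the membrane-anchored inhibitor, had the widest spread of the inhibitors in both sets. It read −0.99, 0.60 and 0.74 in PN, against 1.31, 1.51 and 0.68 in WT. PN1 was far below the rest and PN3 lay just above WT3, and the difference was −1.05 (SE 0.48, limma adjusted p = 1.00, 95% interval −2.20 to 0.098). Without PN1 it was −0.50. The table gave 12.32, 11.55 and 11.13 in PN, against 12.16, 11.59 and 9.12 in WT. Column WT3 was far below the other 5, and the difference was 0.71 (SE 0.72, limma adjusted p = 0.558). Without WT3 it was −0.21.

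The arrays that were lowest for Mmp2, Mmp11, Timp2 and Reck were PN1 in the scanner files and WT3 in the table, the file and the column that matched each other. On this array Reck lay below the next lowest by more than the range of the other 5 in the scanner files (−0.99 against 0.60 to 1.51), and at 9.12 against 11.13 to 12.32 in the table. Across all 6 arrays the range of Reck was 2.49 log2 in the scanner files and 3.20 in the table. The range of Mmp13 was 2.13 and 2.54, and that of Mmp2 was 1.86 and 1.90. The ranges of Mmp11 (0.52 and 0.30) and Mmp14 (0.58 and 0.42) were among the narrowest in both sets. Mmp16 had the widest range in the scanner files, 5.60, and 0.38 in the table.

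**Figure D4:**
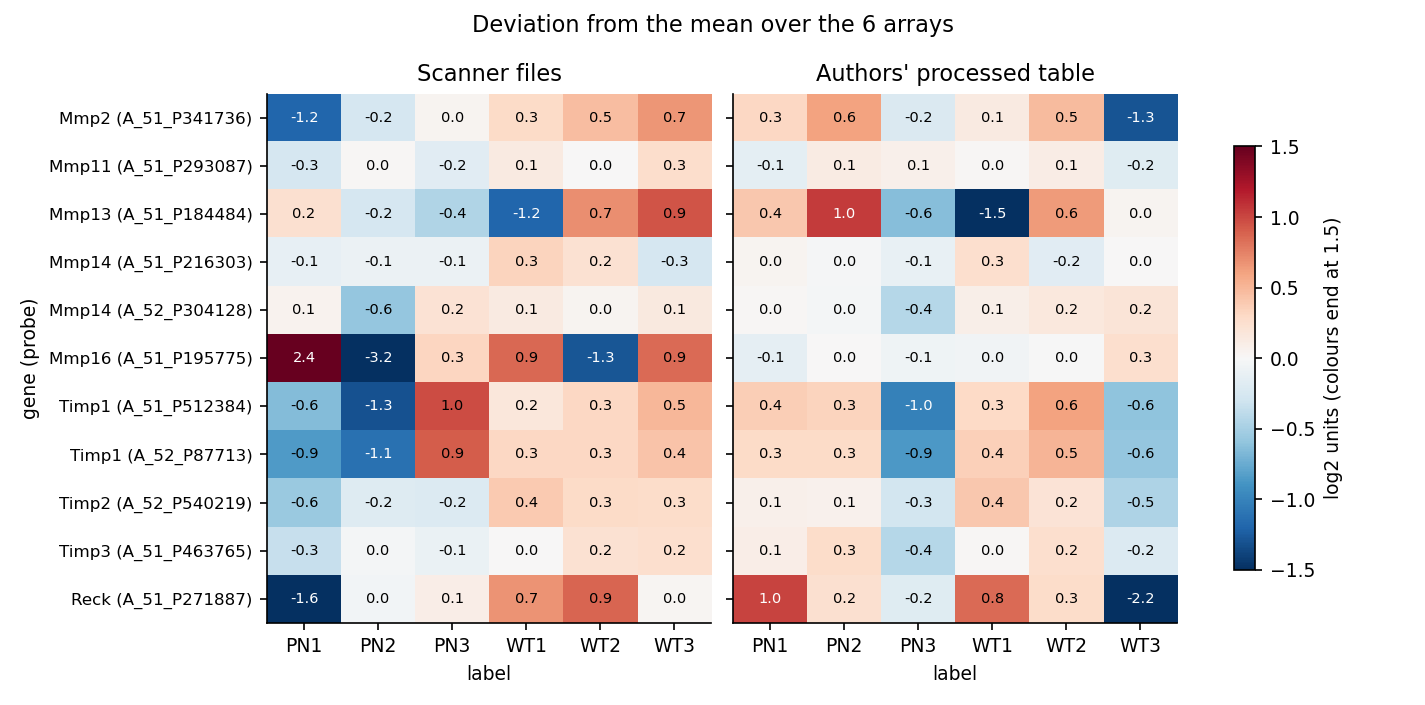
Each cell is the deviation, in log2 units, of 1 probe on 1 array from that probe's mean over the 6 arrays, for all 11 probes, in the scanner files (left) and the authors' table (right); red is above and blue below the mean, and the colours end at 1.5. Mmp2 and Reck are lowest in the file labelled PN1 and in the column labelled WT3, and Mmp13 is lowest in WT1 in both sets.

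The levels of 7 members could be set beside their promoter sequence from RefSeq (GRCm38.p6, 250 bases before to 50 after the start). No window was at hand for Mmp2 and Mmp16. Mmp13 and Timp2 are shown because they are the protease that varied most by array among those well above background and the inhibitor with the clearest label difference in the scanner files. The searched motifs, on both strands, were the AP-1 site TGANTCA, the TATA box TATAAA and the GC box GGGCGG, which do not overlap here and stand in capitals. The window of Mmp13 is chr9:7272264-7272563, plus strand, and that of Timp2 is chr11:118355362-118355661, minus strand, each printed 5′ to 3′ along its gene.
Mmp13: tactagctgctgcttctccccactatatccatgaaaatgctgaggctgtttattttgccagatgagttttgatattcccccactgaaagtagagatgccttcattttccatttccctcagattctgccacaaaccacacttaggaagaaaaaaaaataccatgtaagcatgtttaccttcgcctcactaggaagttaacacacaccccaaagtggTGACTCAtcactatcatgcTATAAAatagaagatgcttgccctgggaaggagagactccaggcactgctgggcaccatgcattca
Timp2: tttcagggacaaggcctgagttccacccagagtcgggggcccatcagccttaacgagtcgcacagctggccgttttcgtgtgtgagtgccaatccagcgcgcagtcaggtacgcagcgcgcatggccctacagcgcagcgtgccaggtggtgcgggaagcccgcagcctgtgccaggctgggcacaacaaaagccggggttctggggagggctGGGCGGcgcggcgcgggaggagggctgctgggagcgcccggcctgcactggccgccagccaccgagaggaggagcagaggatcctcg
In Mmp13 an AP-1 match begins 35 bases before the start and a TATA box 16 bases before it, and there is no GC box. It was the only one of the 7 windows with an AP-1 match or a TATA box, which 7.81% and 13.62% of 32851 RefSeq windows hold. In Timp2 a single GC box begins 37 bases before the start. The other 5 windows also held GC boxes, 4 in Mmp11, 3 in Reck, 2 each in Mmp14 and Timp3 and 1 in Timp1, as did 35.66% of all windows. A match of letters is a description of the window and not a measured binding site.

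Among named genes, the profiles most like those of the members were found by the root mean square difference between centred log2 profiles over the 6 arrays, with no test. Mmp2 was nearest to F13a1, the coagulation factor XIII A chain, at 0.0836, and to Car2, a carbonic anhydrase, at 0.107. In the table Car2 was again among its 2 nearest, at 0.102, beside the collagen gene Col5a3 at 0.0756. Mmp11 was nearest to Cmtm3 in both sets, at 0.0329 and 0.0304. Its own SD over the 6 arrays was small, 0.191 and 0.131, against 0.667 and 0.697 for Mmp2. The distances of members that vary unequally are therefore not directly comparable. Timp2 was nearest to Cav1, caveolin-1, at 0.0467, in the scanner files and to Gprc5c, at 0.0321, in the table. Reck was nearest to Lum, the collagen-binding proteoglycan lumican, at 0.212, in the scanner files and to Ms4a6b, at 0.117, in the table. Timp1 was nearest to Gchfr, at 0.111, and in the table to Ogn, the small proteoglycan osteoglycin, at 0.110. Mmp13 had no close match, with Cstdc5 at 0.272 and, in the table, Sfrp4, a secreted Wnt inhibitor, at 0.307. In the scanner files the nearest genes of Mmp14 were Foxn3, at 0.0599, and Rdh12, and those of Timp3 were Xpot, at 0.0410, and Nol11. In the table they were others: Tnf and Comp for Mmp14, and Tmem203 and Efl1 for Timp3.

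Of the other metalloproteinases and Timp4, 10 of 16 were measured. None passed the adjusted threshold in the scanner files, and 0 of 10 passed an unadjusted p under 0.05. A lower mean in PN was seen in 8, as in 61.0% of all features, and the median difference was −0.20. The 4 with the smallest p were the membrane-type enzymes Mmp24 (−1.32, SE 2.02) and Mmp25 (−0.70), the stromelysin Mmp3 (−0.89) and Mmp23 (−0.53). In the table they stood at −0.75, −0.20, −0.50 and −0.40. Mmp24 passed there (SE 0.21, limma adjusted p = 0.0366), as did 23.6% of all features, but not without column PN2. Mmp24, Mmp25 and Mmp3 were dim: not every array was well above background, and the file PN2 read −9.79, −8.05 and −9.79. In the table Mmp24 averaged 6.88 in PN and 7.63 in WT, below every column's median (8.36 to 8.39).

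Of the ADAM and ADAMTS proteases, cell-surface sheddases and secreted proteoglycan and procollagen proteases, 26 of 33 were measured. In the scanner files 0 of 26 passed either threshold, 20 had a lower mean in PN (61.0% of all features did) and the median was −0.18. Adamts5, an aggrecanase, stood at −0.64 (SE 0.31), against 0.23 in the table. Over the whole table, 23.6% of all features and 2446 of 15582 named genes were called. By its columns, 5 of 26 of these proteases passed, all lower in PN. They were chosen for naming after their values were seen: Adamts20 at −1.86, Adamts14 at −1.73, Adamts3 at −2.17, Adamts16 at −1.46 and Adam33 at −1.32. Adamts3 and Adamts14 are procollagen N-proteinases. None of the 5 passed without column PN2, without PN3, or with the replicate number as a block.

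Of the activators and partners of metalloproteinases, 29 of 32 were measured. In the scanner files 26 had a lower mean in PN, as did 61.0% of all features. The list's median was −0.30 and none passed the adjusted threshold. At an unadjusted p under 0.05, 3 were lower, as were 1.78% of all features. Cav1, which binds Mmp14 in caveolae, differed by −0.61 (SE 0.15) and Thbs2, thrombospondin 2, which takes part in the uptake of Mmp2, by −1.06 (SE 0.35). Plat, tissue plasminogen activator, differed by −0.64 (SE 0.23). In the table these stood at 0.02, 0.23 and 0.45. There 2 of 29 passed, where 23.6% of all features did, and both were higher in PN. Plau, urokinase, whose product plasmin activates metalloproteinases, stood at 1.25 (SE 0.30, limma adjusted p = 0.0251). Tfpi2, a matrix-bound serine protease inhibitor, stood at 0.95 (SE 0.24, limma adjusted p = 0.0270). Neither passed without column PN2, and in the scanner files their groups overlapped.

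Of the matrix proteins that these enzymes cut, 14 of 15 were measured. In the scanner files 13 had a lower mean in PN, as did 61.0% of all features. At an unadjusted p under 0.05, 5 were lower, as were 1.78% of all features, and none after adjustment. The list's median was −0.63. Tnc, tenascin-C, differed by −1.03 (SE 0.22), Col3a1, a fibrillar collagen chain, by −0.69 (SE 0.16), Col6a1, a collagen VI chain, by −1.14 (SE 0.32) and Fn1, fibronectin, by −0.72 (SE 0.24). In the table the list was evenly split, with 7 of 14 lower and a median of −0.0067, and these genes stood at −0.30, 0.06, 0.45 and 0.26.

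In the scanner files, markers of mesenchyme were lower in PN, like the members. All 13 had a lower mean in PN there, with a median of −0.49, while 3 of 13 did in the table, with a median of 0.14. For the members it was 9 of 9 and 5 of 9, with medians of −0.32 and −0.04. All 8 endothelial and all 9 macrophage and osteoclast markers were also lower in the scanner files, where 61.0% of all features were. Of 9 epithelial markers, 7 were higher there, with a median of 0.14. As the median deviation from each probe's mean, the mesenchyme markers stood at −0.63, −0.083 and −0.099 in PN1, PN2 and PN3, against 0.33, 0.34 and 0.27 in WT. The members stood at −0.35, −0.19 and −0.090 in PN, against 0.32, 0.29 and 0.28 in WT. In the table the mesenchyme markers read 0.26, 0.13 and −0.16 in PN, against 0.28, 0.17 and −0.56 in WT, and the members 0.097, 0.24 and −0.22 in PN, against 0.13, 0.25 and −0.20 in WT. Both lists were lowest in the file PN1 and in the table columns PN3 and WT3. The part of tissue composition in the members' values was not tested.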

How the data were processed

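Amplified RNA was labelled with Cy3, per the labels' protocols, and the arrays were read with Agilent Feature Extraction 10.5.1.1 per the file headers (10.3 per the submitters' processing notes). The deposited scanner files hold background-subtracted processed intensity per spot; the deposited table holds processed log2 signals, a scale read from the values (a common 75th percentile of 10.98 in every column, no gene centring), with its normalization not given in the sources used here. From the intensities, log2 processed signal minus the log2 75th percentile of gene probes was computed per array. Outlier spots were left out, and probes were kept if well above background on at least 3 of 6 arrays. The probe with the highest mean stood for a gene; names came from RefSeq (GRCm38.p6) by accession, for 60.3% of gene probes. The comparison of the labelled groups used lmFit and eBayes with a trend (limma 3.58.1, R 4.3.3) and Benjamini-Hochberg adjustment over all features. The fit was first run on simulated data with equal, independent noise on every feature. These arrays differ from that setting, so the run checks only the steps of the fit. The table was fitted in the same way, except that no outlier spots were left out.

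Members and lists were chosen with earlier results of these data known. Besides the members, genes were named from the 4 with the smallest limma p of each protease, partner and substrate list. Others were named from the 2 nearest profiles of each member. Deviations of same-numbered arrays from their group means correlated at 0.843, 0.876 and 0.193 in the scanner files, so the numbers, which also mark the position on the slide, were treated as pairs in a replicate block; in the table they correlated at 0.407, 0.393 and −0.0246. Alternatives were quantile, median and normexp normalization (offset 50, on median signals), other filters, probe rules and moderation, array weights, the block and each array left out.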

Additional observations from a re-analysis of the deposited data

How the results depend on the processing

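No member passed the adjusted threshold in the scanner files with any scaling, filter, probe rule, moderation, array weights, block or single array left out. Timp2 came closest, at a limma adjusted p of 0.0765 with array weights. In the other fits named here the smallest was 0.391, for Timp1 without PN3. Mmp2, Mmp11, Mmp14, Timp2, Timp3 and Reck stayed lower in PN under all of these settings. Mmp16 turned to 0.19 with quantile normalization and 0.048 with normexp and quantile normalization, and Timp1 to 0.40 with array weights. With 1 scanner file left out, Mmp13 turned to 0.095 without WT3, and Mmp16 to 1.23 without PN2, 0.071 without WT1 and 0.068 without WT3. In the authors' table, with or without its replicate block, Mmp2 stood at 0.46, Mmp11 at 0.037, Mmp13 at 0.54 and Reck at 0.71. The members lower at an unadjusted p numbered 0 with median scaling (0.0487% of all features) and 4 with normexp and the 75th percentile (1.72%). They numbered 1 with moderation without a trend (1.29%), 4 with array weights (4.48%) and 3 with the replicate block (1.91%). In the table they numbered 0 (21.7%), and 1 with its block (22.5%). In that blocked table fit Mmp2 was higher in PN at an unadjusted p (0.46, SE 0.19, limma adjusted p = 0.124), the opposite side from the scanner files. In the replicate block, or paired, fit Mmp2 differed by −0.94 and 0 members were called, so the block changed no call of a member. Members whose groups did not overlap numbered 0 with median scaling (2.05% of all features) and 0 in the table (43.2%). The median over the members was −0.56 with normexp and the 75th percentile, where the median of all features moved to −0.23, −0.48 with probes well above background on all 6 arrays, where Mmp16 dropped out, and −0.04 in the table.

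Without the 3 arrays whose Perp signal went against their label, 1 PN array (PN2) was left against WT1 and WT3, assumed to vary like them. With 1 array in a group, 12078 features (45.4%) were called, the groups did not overlap for 86.2% of all features and the median of all features moved to −0.38. Its counts, 2 members called and 7 not overlapping and 39 genes of the other lists called, say nothing of the members. The called members were Timp1 (−1.49) and Mmp16, which was not well above background on PN2. The authors' table called 8 genes of the other lists and 23.6% of all features, and 1 feature in all with its block. Leaving out 1 array in turn, in the scanner files and the table together, gave 0 to 4 members lower at an unadjusted p and 0 to 5 not overlapping. Over all features, the groups of the scanner files did not overlap for 9.62% to 19.0% in these fits, against 7.06% with all arrays. In the scanner files 0.851% to 4.24% were lower at an unadjusted p. Among the table columns, 46.2% to 54.6% did not overlap and 17.9% to 21.0% were lower at an unadjusted p. These fits gave a member median of −0.65 to 0.17 and 0 to 8 other genes called, with 0% to 22.2% of all features called. The differences ranged from −1.19 to 0.82 for Mmp2, −0.35 to 0.12 for Mmp11, −0.97 to 0.995 for Mmp13, −0.38 to 0.050 for Mmp14, −1.57 to 1.23 for Mmp16, −1.34 to 0.19 for Timp1, −0.70 to 0.083 for Timp2, −0.40 to 0.17 for Timp3 and −1.36 to 1.31 for Reck. Without PN2 the median of all features in the scanner files was 0.23. The blocked and leave-one-out fits of the table were chosen after seeing the data. The cause of these shifts was not tested. Dim signal limits Mmp16.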

Other observations

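Lists of markers of other cell types also changed sign between the scanner files and the authors' table. Of all features, 61.0% had a lower mean in PN in the scanner files and 48.4% in the table. Of 8 endothelial markers, 8 had a lower mean in PN in the scanner files, with a median log2 difference of −1.07, while 1 did in the table, with a median of 0.47. Of 9 macrophage and osteoclast markers, 9 were lower in the scanner files, with a median of −0.64, and 1 in the table, with a median of 0.36. Of 6 muscle markers, 0 were lower in the scanner files and 5 in the table, with medians of 0.76 and −0.48. Enamel epithelium markers kept their side, with 5 of 6 lower in both sets, at medians of −0.59 and −0.87. Odontoblast and bone markers did as well, with 7 of 9 lower in the scanner files and 6 of 9 in the table. Cartilage markers were lower in 4 of 6 in the scanner files and in 6 of 6 in the table. There 2 passed the adjusted threshold, as did 23.6% of all features.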
